A study of Homo sapiens with 6 samples.

Results

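The cytosolic ribosomal protein genes encode the protein part of the ribosomes that translate nuclear-encoded mRNA. They were taken here as every deposited gene row whose symbol is RPL or RPS followed by a number and at most one of the letters A, X or L, together with RPLP0, RPLP1, RPLP2 and RPSA, so that pseudogenes were left out. The rule used symbols only and no measured value, although the family was chosen with earlier results of these data known. It found 81 of the 38557 listed genes, 49 of the large subunit and 32 of the small subunit, and 79 of the 81 passed the filter on low counts (at least 10 counts in enough libraries) that left 16107 genes for testing. RPL3L and RPL10L did not pass.

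RNA was sequenced from cardiomyocytes that had been differentiated from the wild-type line WTC11, a widely used line of human induced pluripotent stem cells. A set of 3 libraries came from cells kept in RPMI plus B27 (B27 is a serum-free supplement) and another 3 from cells kept in DMEM plus fatty acids, numbered 1 to 3 in both media as biological replicates, and p values measure the spread between these libraries. All 6 libraries share the one line, and what the media contained beyond their names, and how long cells were kept in them, is not in the labels. Gene rows held 23232324 to 31035389 counts per library, and the 12 cardiomyocyte markers summed to 24401 to 37618 CPM (counts divided by library size, scaled between libraries by TMM, the trimmed mean of M values).

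A ribosome has a small subunit, which holds the mRNA and reads its codons, and a large subunit, which joins the amino acids and releases the new chain through an exit tunnel. Each protein is normally present as a single copy per ribosome, apart from the stalk proteins RPLP1 and RPLP2, and cells adjust their output together. Most of these mRNAs begin with a C followed by a run of C and T letters, the 5′ terminal oligopyrimidine (TOP) start, through which mTOR and LARP1 control their translation and stability. Some members are paralogs with a narrower range. RPL3L takes the place of RPL3 in adult skeletal and heart muscle, RPL10L and RPL39L are best known from testis, and RPS27L is a p53-responsive relative of RPS27.

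The starts of 10 members are shown: those with the lowest fold changes that were matched, a stalk protein, a member above 0, and 3 genes with a paralog beside the paralogs that were matched. They show the pyrimidine run that most of the family shares and 2 paralogs that lack it. The search looked on the transcribed strand for the letter C followed by at least 4 letters that are each C or T, first exactly at the annotated start and then at any base up to 10 before or after it. RefSeq starts (GRCh38.p14, the build family of the deposited counts) were matched by symbol for 64 of the 81 members. Each window below holds 15 bases before the start and the first 15 transcribed bases, which lie in the first exon, written 5′ to 3′, with the run in capitals.
RPLP0 (chr12:120201097-120201126, minus strand): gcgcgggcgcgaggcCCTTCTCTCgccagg
RPSA (chr3:39406705-39406734, plus strand): tttcctgccgcctgtCTTTTCCgtgctacc
RPS19 (chr19:41860240-41860269, plus strand): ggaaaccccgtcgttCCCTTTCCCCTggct
RPLP1 (chr15:69452803-69452832, plus strand): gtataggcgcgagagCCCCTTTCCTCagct
RPL10 (chrX:154398362-154398391, plus strand): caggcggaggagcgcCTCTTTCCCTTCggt
RPS27 (chr1:153990747-153990776, plus strand): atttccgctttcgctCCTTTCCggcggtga
RPS28 (chr19:8321481-8321510, plus strand): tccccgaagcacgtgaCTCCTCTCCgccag
RPL3 (chr22:39319609-39319638, minus strand): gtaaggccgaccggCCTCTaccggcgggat
RPS27L (chr15:63157463-63157492, minus strand): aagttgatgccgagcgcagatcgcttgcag
RPL10L (chr14:46651767-46651796, minus strand): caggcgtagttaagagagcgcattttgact
RPS19 and RPL10 have more than one annotated start, and the one with the run at its first base is shown. In RPS28 the run began 1 base after the start and in RPL3 1 base before it. The run began exactly at the start in 46 of the 64 members (71.88%), against 5.142% of the 27305 symbols in the table and 6 of 69 mitochondrial ribosomal protein genes. With the wider window it was found in 57 of the 64 (89.06%), against 38.43% of all symbols. Among the 12007 tested genes in the table these shares were 7.162% at the start and 42.39% with the wider window. RPS27L and RPL10L held no such run in either search, while their relatives RPS27 and RPL10 did. The searches also found no run in RPL6, RPL17, RPL27, RPS29 and RPS4X, which are not described here as paralogs. For RPL17 this reflects the limit of the search, since its window opens with a pyrimidine run that begins more than 10 bases before the start. The RPL6 starts in the table lie well inside its annotated gene, so its missing run may reflect the annotation. A match is a description of the letters in this window.

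None of the ribosomal protein genes passed the test between media, and nearly all of them were slightly lower in the medium with fatty acids. Of the 79 tested, 0 had an adjusted p under 0.05 by edgeR's quasi-likelihood test with Benjamini-Hochberg adjustment, where 1.36% of all tested genes did (1.07% lower and 0.292% higher). With the replicate number as a block the count was also 0, where 4.78% of all tested genes passed (3.42% lower and 1.36% higher). At an unadjusted p under 0.05 there were 21 members, all lower, where 17.7% of all tested genes passed (9.98% lower). DESeq2's Wald test called 4 members, RPLP0, RPSA, RPS19 and RPS2, all lower, where it called 7.52% of all tested genes (5.13% lower and 2.4% higher). The fitted log2 fold change, DMEM plus fatty acids divided by RPMI plus B27, was below 0 in 76 of 79 members, where 49% of all tested genes were below 0. The median over the members was -0.28, which is 17.4% lower, and the median over all tested genes was 0.01. The middle part of the members was narrow, with quartiles of -0.34 and -0.21, against -0.25 and 0.24 over all tested genes. In simulated counts the edgeR test recovered 53.5% of 2-fold changes, and smaller changes were not simulated. That 0 members passed therefore does not show that their levels were equal.

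**Figure D1:**
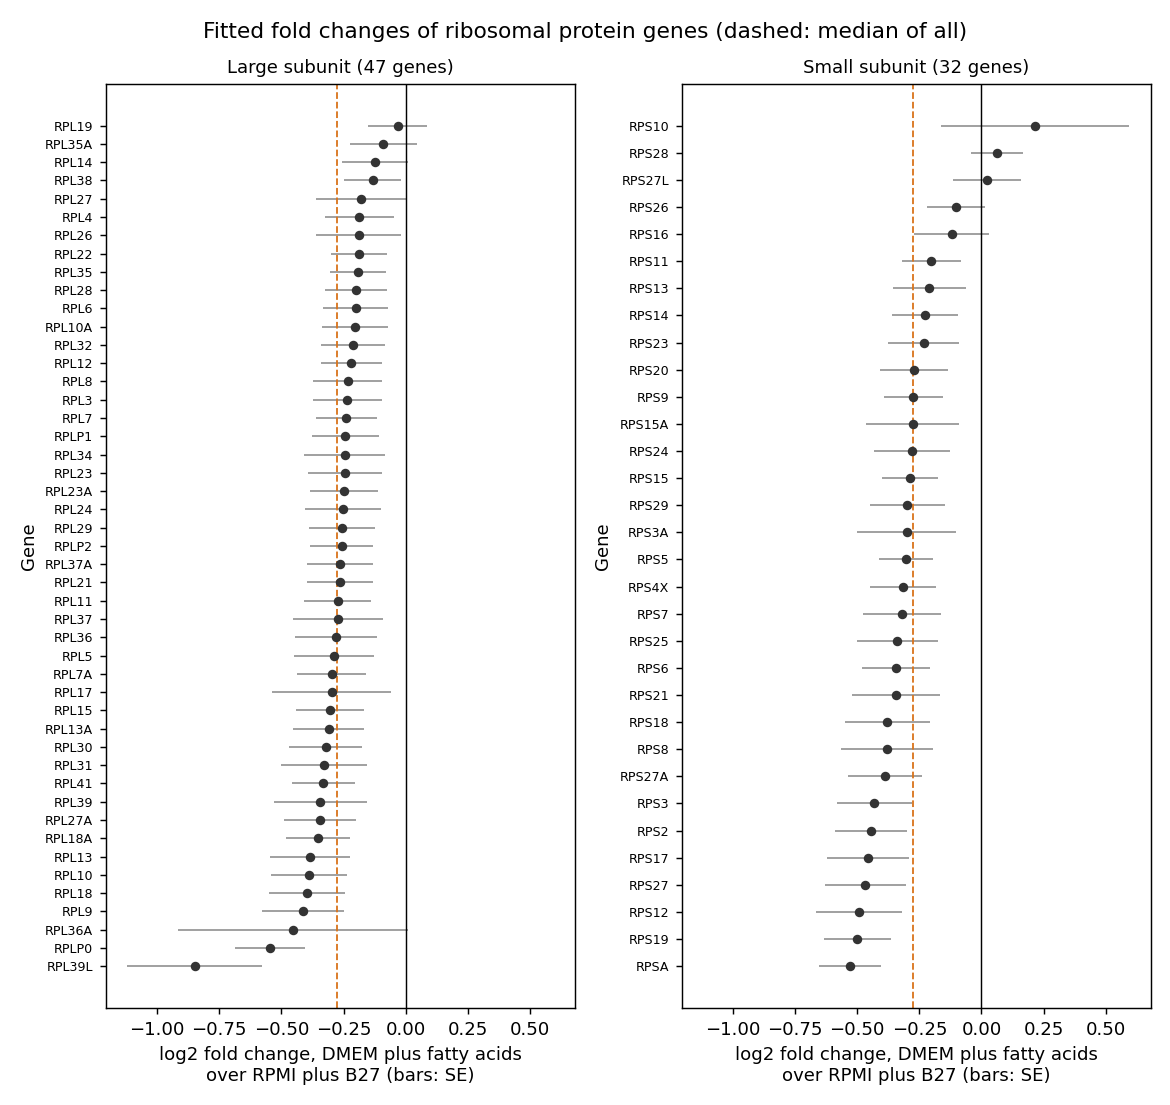
Fitted log2 fold change of each tested member (points, horizontal axis, DMEM plus fatty acids divided by RPMI plus B27) with its standard error (bars), large subunit on the left and small subunit on the right; the dashed line is the median over all 79. Of these, 76 points lie below 0, and RPS10, RPS28 and RPS27L lie above it.

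The libraries also differed within a medium. The members summed to 31817, 25657 and 25929 CPM with RPMI plus B27 (replicates 1, 2 and 3) and to 22290, 22928 and 23083 CPM with DMEM plus fatty acids replicates 1, 2 and 3. The groups did not overlap, and RPMI plus B27 replicate 1 stood well above every other library. It was the highest of the 6 libraries for 71 of the 79 tested members, and DMEM plus fatty acids replicate 1 was the lowest for 40. Without RPMI plus B27 replicate 1, the median log2 fold change of the members was -0.16, with 74 of 79 below 0. In the 3 pairs of libraries with the same replicate number, the median log2 difference of the members was -0.50, -0.15 and -0.13, with 76, 75 and 63 of 79 lower. The same medians over all tested genes were 0.01, 0.001 and 0.02. The difference within the first pair was therefore more than 3 times that in either of the others, and 60 members were lower in all 3 pairs, where 24.0% of all tested genes were.

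**Figure D2:**
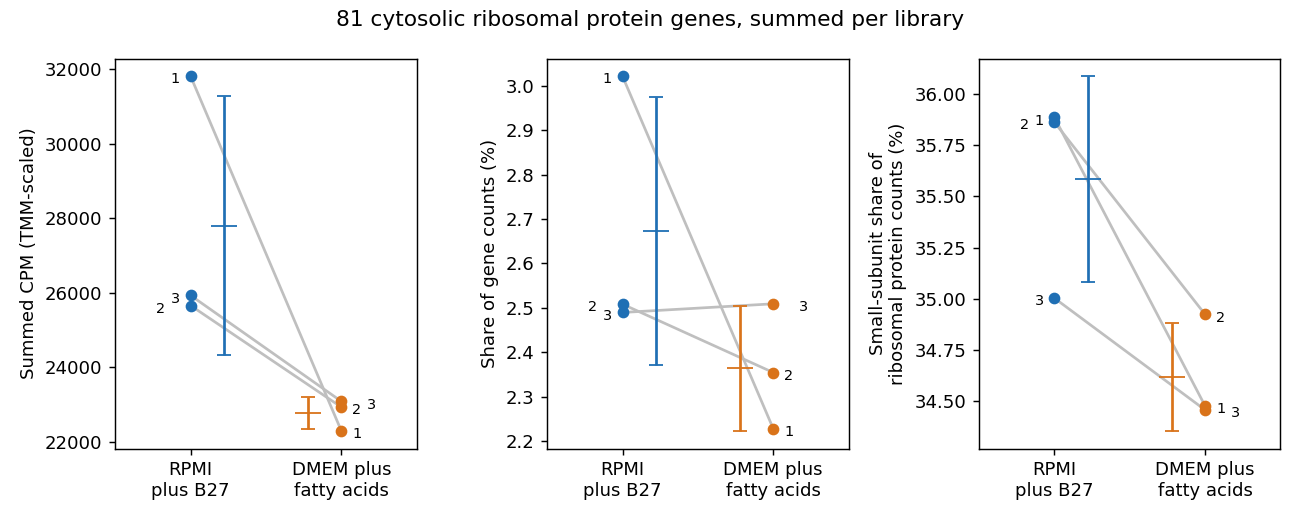
The 81 members summed per library: TMM-scaled CPM (left), percent of all gene counts (middle) and small-subunit share of the members' counts in percent (right). Points are libraries with their replicate number, grey lines join equal numbers, and bars are mean ± SD (n = 3). RPMI plus B27 replicate 1 lies highest in each panel; the media overlap only in the middle panel.

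As a share of all gene counts, without scaling, the members took 3.02%, 2.51% and 2.49% with RPMI plus B27 and 2.23%, 2.35% and 2.51% with DMEM plus fatty acids. On this measure the media overlapped, and the means were 2.67% ± 0.302 and 2.36% ± 0.141 (SD, n = 3 each). Scaling by total counts in place of TMM moved the median of all tested genes by 0.11 on the log2 scale. Relative to that median the members stood at -0.285 under TMM and -0.287 under total counts, with 76 of 79 below it under each. Against 0, 73 of 79 were lower under total counts.

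Member by member, the media did not overlap for 48 of the 79 tested members, all with DMEM plus fatty acids lower, a pattern that 12.8% of all tested genes showed. No member had every library of DMEM plus fatty acids above those of RPMI plus B27, where 12.8% of all tested genes did. The lower levels were found in both subunits. Of the large subunit genes, 47 of 47 tested had a log2 fold change below 0 (median -0.26) and 28 did not overlap, and of the small subunit genes 29 of 32 were below 0 (median -0.30) and 20 did not overlap. Under total counts these became 45 of 47 and 28 of 32. The small subunit genes made up 35.9%, 35.9% and 35.0% of the members' counts with RPMI plus B27 and 34.5%, 34.9% and 34.5% with DMEM plus fatty acids. This share was lower with DMEM plus fatty acids by 0.964 percentage points without overlap, with p = 0.1 by an exact two-sided permutation test, which is the smallest that 3 against 3 libraries can give.

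**Figure D3:**
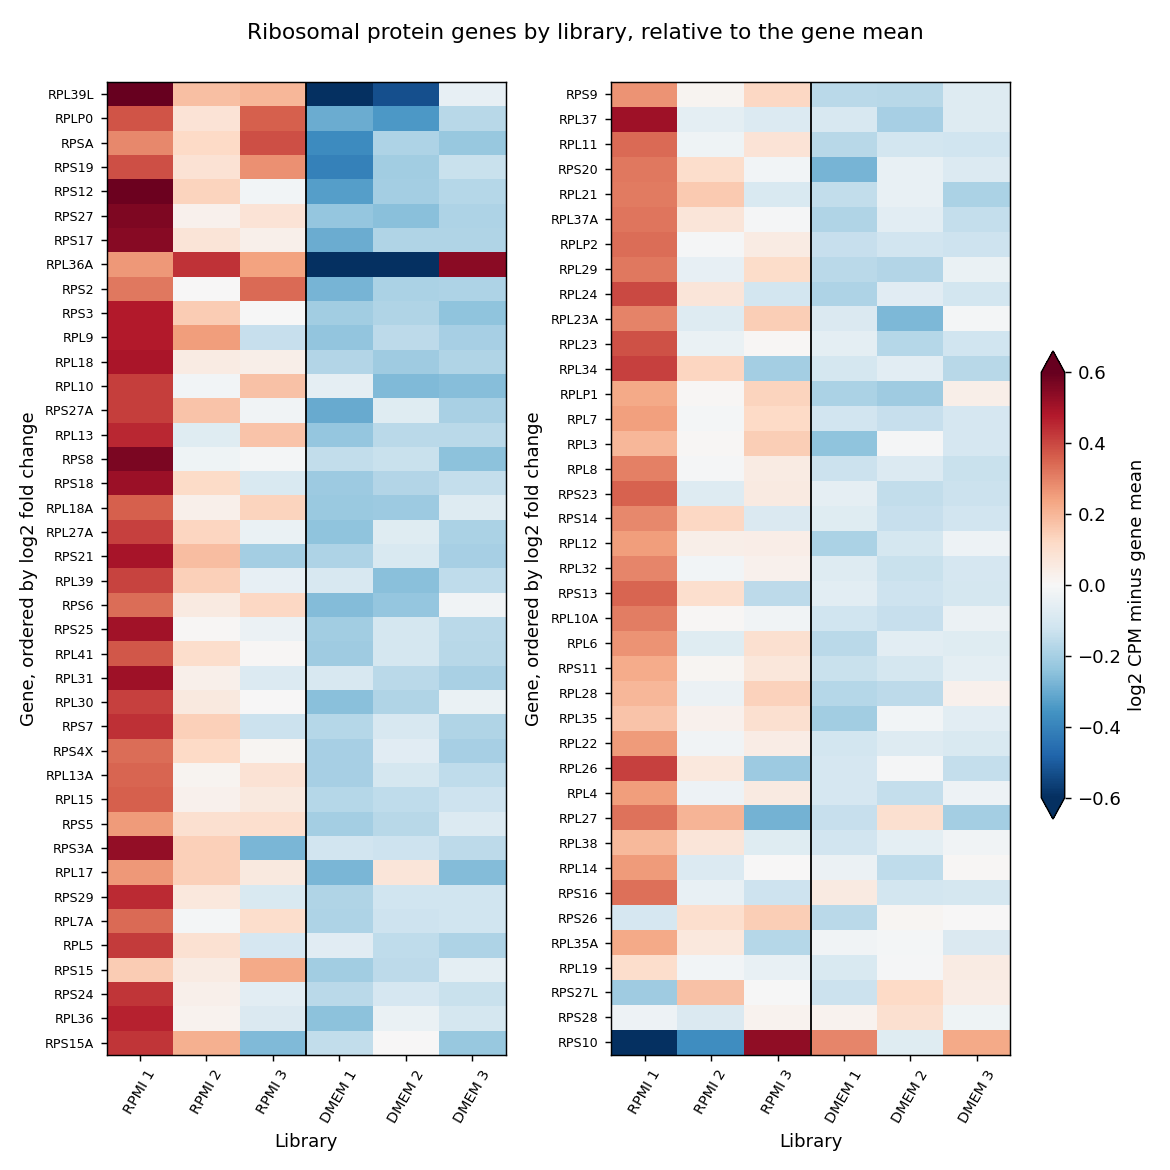
Each row is a tested member and each column a library; colour is log2 CPM minus the member's mean over the 6 libraries (red higher, blue lower), rows ordered by log2 fold change from lowest to highest. The first column, RPMI plus B27 replicate 1, is the highest library for 71 of 79 rows, and RPS26, RPS27L and RPS10 are among the exceptions.

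The lowest fold changes belonged to RPL39L, RPLP0, RPSA and RPS19. RPLP0 is the base of the large-subunit stalk that recruits elongation factors, and is widely used as a reference gene for quantitative PCR. Its level was 901.0, 734.4 and 889.6 CPM with RPMI plus B27 and 564.6, 546.7 and 618.6 CPM with DMEM plus fatty acids. The lowest RPMI plus B27 library was above the highest of the other medium, and the log2 fold change was -0.55 ± 0.14 (SE) with an edgeR adjusted p of 0.116 and a DESeq2 adjusted p of 0.00450. The replicate number as a block gave an edgeR adjusted p of 0.0748.

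RPSA, a small-subunit protein also known as the laminin receptor, had 297.2, 264.4 and 318.3 CPM with RPMI plus B27 and 187.8, 214.2 and 208.3 CPM with DMEM plus fatty acids. The media did not overlap, and RPMI plus B27 replicate 3, not replicate 1, was the highest library. Its log2 fold change was -0.53 ± 0.12, with an edgeR adjusted p of 0.0947, the smallest among the members, and 0.00486 by DESeq2. RPS19, a small-subunit protein mutated in Diamond-Blackfan anaemia, had 359.3, 291.9 and 332.7 CPM against 207.8, 237.9 and 250.2 CPM. These groups were also apart, with a log2 fold change of -0.50 ± 0.13 and adjusted p values of 0.124 by edgeR and 0.0192 by DESeq2. RPS2, which lines the mRNA entry channel, was the other member called by DESeq2 and was named after its values were seen, with a log2 fold change of -0.44 ± 0.14 and adjusted p values of 0.179 by edgeR and 0.0400 by DESeq2. When any single library was left out, the log2 fold changes of RPLP0, RPSA and RPS19 stayed between -0.64 and -0.43, and none of the 3 passed by edgeR in any of those 6 fits.

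The other stalk proteins were closer to the middle of the family. RPLP1 was at 626.8, 539.4 and 587.8 CPM with RPMI plus B27 and 470.6, 462.1 and 549.5 CPM with DMEM plus fatty acids, so that DMEM plus fatty acids replicate 3 overlapped with the other medium (log2 fold change -0.24 ± 0.13). RPLP2 was at 293.5, 232.2 and 240.7 CPM against 211.7, 215.5 and 213.8 CPM, without overlap (-0.26 ± 0.13). RPL5 and RPL11, which carry the 5S ribosomal RNA and can bind MDM2, the main brake on p53, had log2 fold changes of -0.29 ± 0.16 and -0.27 ± 0.13. RPL11 did not overlap between media, with 382.2 to 492.9 CPM with RPMI plus B27 and 346.7 to 360.1 CPM with DMEM plus fatty acids. RPL5 did overlap, with 556.5 to 799.3 and 525.0 to 569.9 CPM. All 8 proteins listed for the rim of the exit tunnel were below 0, from -0.34 for RPL39 to -0.03 for RPL19, and 4 of the 8 did not overlap, against 48 of all 79 tested members and 12.8% of all tested genes. Of the 19 members linked to Diamond-Blackfan anaemia, 17 were below 0 (median -0.28) and 10 did not overlap, shares close to that of the family.

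A few members did not share the lower level. RPS28, near the mRNA exit of the small subunit, was at 167.6, 161.2 and 173.7 CPM with RPMI plus B27 and 173.4, 183.0 and 167.9 CPM with DMEM plus fatty acids (log2 fold change 0.06 ± 0.10). The media overlapped, and its part of the members' counts was 0.608% with RPMI plus B27 and 0.768% with DMEM plus fatty acids on average. RPL19, at the tunnel exit, was at 545.6, 501.1 and 492.1 CPM against 475.5, 504.3 and 524.6 CPM (-0.03 ± 0.12), a value that turned to 0.08 under total counts. RPS10 had a log2 fold change of 0.22 ± 0.38, but it rested on 22 to 50 counts per library. Leaving out 1 library gave RPS10 values from 0.001 to 0.64. Apart from these, RPS27L and the lowest 4, the tested members lay between -0.49 for RPS12, a small-subunit protein, and -0.09 for RPL35A, a large-subunit protein.

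The paralogs were described against their close relatives. RPS27L was at 60.1, 78.7 and 69.5 CPM with RPMI plus B27 and 63.7, 75.7 and 71.8 CPM with DMEM plus fatty acids, with overlap between media (log2 fold change 0.02 ± 0.14, and 0.13 under total counts). RPS27 was at 374.4, 258.9 and 269.5 CPM against 216.2, 213.6 and 223.6 CPM, without overlap (-0.47 ± 0.16, edgeR adjusted p 0.202, and -0.28 without RPMI plus B27 replicate 1). RPS27L made up 13.8%, 23.3% and 20.5% of the pair's counts with RPMI plus B27 and 22.8%, 26.2% and 24.3% with DMEM plus fatty acids. It was higher with DMEM plus fatty acids in 3 of 3 same-numbered pairs, but the media overlapped. This share and that of RPL39L were added after the values were seen, and an exact two-sided permutation test gave p = 0.2 for each. RPS27L is also one of the 2 printed starts without a pyrimidine run. The other tested members without a run in either search had log2 fold changes of -0.20 (RPL6), -0.30 (RPL17), -0.18 (RPL27), -0.30 (RPS29) and -0.32 (RPS4X). For RPL17 and RPL6 the missing run depends on the limit of the search and on the annotated starts. The part of the run in the level of RPS27L was not tested.

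RPL39L, a large-subunit protein of the tunnel exit, had the lowest fold change of the family, at 18.2, 11.2 and 11.4 CPM with RPMI plus B27 and 6.20, 6.89 and 9.57 CPM with DMEM plus fatty acids. The media did not overlap, although RPMI plus B27 replicate 1 was far above the rest, and the log2 fold change was -0.85 ± 0.27 with an edgeR adjusted p of 0.174. Without that library it was -0.58. Its relative RPL39 was at 9.25 to 12.7 CPM against 8.03 to 8.96 CPM (-0.34 ± 0.19). The part of RPL39L in the counts of that pair was 59.0%, 51.6% and 55.2% with RPMI plus B27. With DMEM plus fatty acids it was 40.9%, 46.2% and 52.7%, with 1 library of each medium overlapping. Per kilobase of transcript RPL39 was at 24.1 CPM, where the median of the tested members was 390.9. Of its stretches of 50 bases, 36.6% were also found in transcripts of other genes, against 2.98% for RPL39L. This share depends on how fully each gene was counted, which was not tested.

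RPL3L, the muscle paralog, was close to the limit of detection. It had 11, 2 and 1 counts with RPMI plus B27 and 2, 1 and 7 counts with DMEM plus fatty acids, where RPL3 was at 995.2 to 1133.9 CPM and 836.6 to 982.9 CPM. RPL3L was 0.0365%, 0.00855% and 0.00340% of the counts of both genes with RPMI plus B27 and 0.0103%, 0.00340% and 0.0225% with DMEM plus fatty acids. The 95% Wilson interval of the highest of these was 0.0204% to 0.0654%, which covers counting error only. The media overlapped (exact two-sided permutation p = 0.9), and the libraries of RPMI plus B27 differed among themselves by more than counting error, since the interval of replicate 3 (0.00060% to 0.0193%) lay below that of replicate 1. RPL10L had 0 counts in all 6 libraries, which allows up to 0.0967 to 0.129 CPM, depending on the library. Its relative RPL10 was at 488.7 to 660.8 CPM against 411.8 to 477.4 CPM (-0.39 ± 0.15). RPL22, an RNA-binding protein of the large subunit that ribosomes can do without, was at 107.8 to 130.5 CPM against 101.3 to 103.8 CPM (-0.19 ± 0.11).

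Between genes, levels were compared per kilobase of transcript, using for each member the shortest complete GENCODE 29 transcript with the coding length of its principal isoform. The median over the 79 tested members was 390.9 CPM per kb over all 6 libraries, with quartiles of 266.3 and 539.4. RPS2, RPL13 and RPL8 were highest at 828.0, 821.3 and 808.9 CPM per kb. Without regard to length, RPL4, RPL3 and RPL13A had the most counts, with 1064.0, 1075.1 and 950.5 CPM with RPMI plus B27 and 934.6, 913.6 and 767.4 CPM with DMEM plus fatty acids. The log2 fold changes of these 3 were -0.19 ± 0.14, -0.23 ± 0.14 and -0.31 ± 0.14. Within either measure the order of neighbouring genes was close, and 5 members had a transcript of over 3000 bases, for which the level per kb is uncertain.

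A group of 6 members lay more than 10-fold below the median level per kb. They were RPL36A (0.860 CPM per kb), RPS10 (2.23), RPL17 (4.71), RPS27L (10.9), RPL39L (16.2) and RPL39 (24.1), and RPS27L is one of those with a long annotated transcript (6434 bases). RPL36A, RPS10 and RPL17 are the members whose locus also carries a deposited readthrough gene row, RPL36A-HNRNPH2, RPS10-NUDT3 and RPL17-C18orf32. Each of the 3 readthrough rows had 0 counts in all 6 libraries. Readthrough transcripts of these loci held 74.7%, 82.6% and 90.3% of the 50-base words of the member's transcript. Reads overlapping more than one gene were 3.90% to 4.15% of all rows per library and were not assigned to a gene, so the levels of these 3 members are uncertain. RPL36A had a log2 fold change of -0.45 ± 0.46 and RPL17 of -0.30 ± 0.24. That of RPL36A was -1.03 without DMEM plus fatty acids replicate 3, -0.22 without replicate 2 and -0.28 without replicate 1. Their own counts were 5 to 17, 22 to 50 and 60 to 99 per library.

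**Figure D4:**
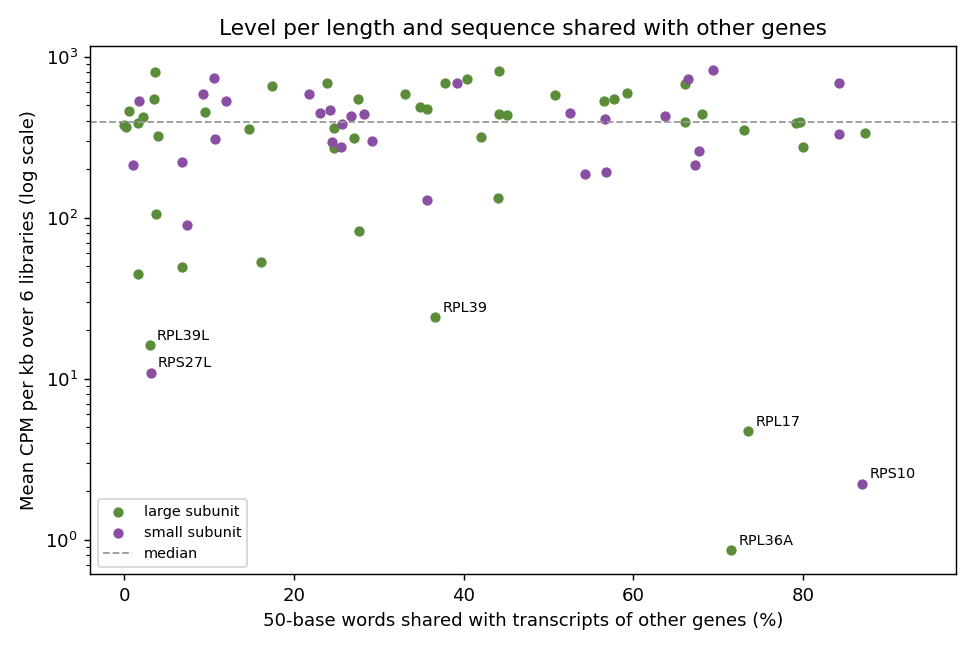
Mean CPM per kb over the 6 libraries (vertical axis, log scale) against the percent of the member's 50-base words found in transcripts of other genes, readthroughs aside (horizontal axis), for the 79 tested members; the dashed line is the median level. The 6 members more than 10-fold below the median are named, and no other point lies that far below the line across the whole range of shared sequence.

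Ribosomal protein genes have many processed pseudogenes, and 76 of the 81 had at least 1 named after them in GENCODE 29, 1133 in all. In the median tested member 29.1% of the 50-base words were also found in transcripts of other genes, and in 26 members more than 50% were. The level per kb had a Spearman's rho of 0.0514 with this share over the 79 members, and the log2 fold change a rho of -0.235, given as descriptions since all members share the same libraries. The median log2 fold change was -0.30 in the 26 members with over 50% shared and -0.26 in the other 53. Reads with several possible alignments were not assigned to genes by HTSeq. They were 3.76% to 4.10% of all rows with RPMI plus B27 and 3.05% to 3.36% with DMEM plus fatty acids, which do not overlap, and their part in the members' levels was not tested.

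Marker sums of some other cell types were apart between the media, while others overlapped. The 15 fibroblast and stromal markers summed to 4364.8 to 8612.4 CPM with RPMI plus B27 and 762.2 to 1963.5 CPM with DMEM plus fatty acids, with 13 of the 14 tested below 0 and 7 past the edgeR threshold. RPMI plus B27 replicate 1 was again the highest and DMEM plus fatty acids replicate 1 the lowest. The 10 smooth muscle markers summed to 2011.6 to 2781.1 against 654.5 to 1530.6 CPM, and the 8 epicardial markers to 1974.1 to 2398.9 against 884.8 to 1098.1 CPM. Cardiomyocyte markers overlapped, at 30390 to 37618 and 24401 to 34202 CPM, as did cycling cell markers (395.3 to 725.1 and 225.6 to 876.2 CPM) and endothelial markers (55.5 to 249.6 and 119.8 to 471.3 CPM). Pluripotent stem cell markers summed to 1.19 to 2.22 CPM with RPMI plus B27 and 0.474 to 1.16 CPM with DMEM plus fatty acids, without overlap. Hepatic endoderm markers overlapped, at 15.6 to 114.9 and 7.66 to 32.3 CPM. No listed marker was at 0 in all 6 libraries. In such bulk samples fewer cells of a type and less RNA per cell cannot be told apart, and the part of these cells in the lower ribosomal protein levels was not tested.

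Other genes of the translation machinery were read from lists chosen with earlier results of these data known. FAU encodes a ribosomal protein fused to a ubiquitin-like part, and RACK1 is a small-subunit protein without the family's name. FAU was at 150.5 to 152.8 CPM with RPMI plus B27 and 128.9 to 134.1 CPM with DMEM plus fatty acids (log2 fold change -0.21 ± 0.10). RACK1 was at 622.0 to 863.9 against 536.4 to 569.7 CPM (-0.41 ± 0.15). Both were without overlap and neither passed by edgeR (adjusted p 0.310 and 0.231). The paralogs with a longer suffix were RPL36AL, RPL22L1, RPL26L1 and RPL7L1, a factor of ribosome assembly, and their log2 fold changes ran from -0.05 to 0.19 with overlap between media.

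For translation initiation and elongation factors the median log2 fold change was -0.05. Below 0 were 30 of 42 under TMM and 12 of 42 under total counts, and 0 passed by edgeR (2 at an unadjusted p under 0.05) or DESeq2. EIF3K, an initiation factor subunit, had 0.39 ± 0.14 and EEF1G, an elongation factor subunit, -0.35 ± 0.14. Host genes of small nucleolar RNAs, many of which also begin with a TOP start, had a median of -0.30 with 17 of 20 below 0, and of -0.19 with 15 below 0 under total counts. Of these, 0 passed by edgeR (2 at an unadjusted p under 0.05) and 1 by DESeq2, ZFAS1, which was at 54.9, 41.9 and 28.0 CPM with RPMI plus B27 and 24.5, 24.4 and 22.4 CPM with DMEM plus fatty acids (-0.81 ± 0.24, edgeR adjusted p 0.149, DESeq2 adjusted p 0.0363). SNHG8 had -0.50 ± 0.21. Ribosome biogenesis factors had a median of 0.01, with 37 of 76 below 0, and of 0.12 with 22 below 0 under total counts; 0 were past either test (2 at an unadjusted p under 0.05 by edgeR). FBL, the methyltransferase that modifies ribosomal RNA, had -0.35 ± 0.14 and PPAN -0.70 ± 0.28. Beside the counts of these lists, 17.7% of all tested genes had an unadjusted p under 0.05 by edgeR. Of all tested genes, 1.36% passed by edgeR and 7.52% by DESeq2.

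Proteins of the mitochondrial ribosome, which translates the mitochondrial genome, stood on the other side of 0. Their median log2 fold change was 0.15 (0.25 under total counts), with 65 of 77 above 0, and the media did not overlap for 22 with DMEM plus fatty acids higher and for 2 with it lower, where 12.8% of all tested genes did so in each direction. None passed by edgeR (14 at an unadjusted p under 0.05, where 17.7% of all tested genes were). Of the 77, 1 passed as higher with the replicate block and by DESeq2, where 1.36% and 2.4% of all tested genes did. It was MRPL34 (42.99 to 47.2 CPM with RPMI plus B27, 57.5 to 80.3 CPM with DMEM plus fatty acids, 0.62 ± 0.15, edgeR adjusted p 0.0948 without and 0.0399 with the block). MRPL41 had 0.45 ± 0.13. Whether these lists differ from the cytosolic ribosomal proteins beyond chance was not tested.

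**Figure D5:**
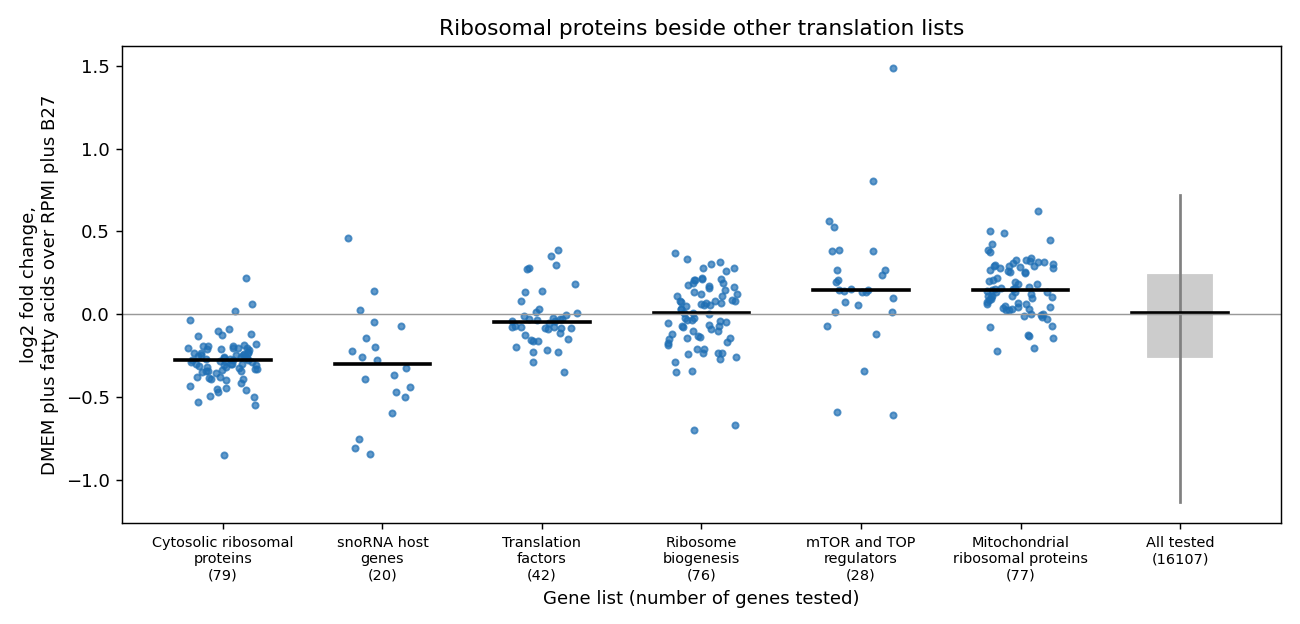
Fitted log2 fold change (vertical axis, DMEM plus fatty acids divided by RPMI plus B27) of each tested gene (points) by list, with the list's median (black line); the grey box and line on the right span the 25th to 75th and 5th to 95th percentiles of all 16107 tested genes. The medians run from -0.30 for snoRNA hosts and -0.28 for cytosolic ribosomal proteins to 0.15 for mitochondrial ribosomal proteins.

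The sequence at the start was set beside the fold changes as a description. For the 46 members with a pyrimidine run exactly at an annotated start the median log2 fold change was -0.28, and 45 of them were below 0. The 17 tested members of the start table without one had a median of -0.21, with 15 below 0. Among tested genes that are no members, the 814 with such a run had a median of -0.02 and the 11130 without had 0.01. The part of the run in the members' levels was not tested.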

How the data were processed

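Per the labels' protocols, total RNA was extracted and a stranded kit for mRNA was used for sequencing libraries. The deposited values are unnormalized read counts for each gene symbol; the submitters' processing notes name STAR, HTSeq and hg38, while versions, annotation and strand setting are not given in the sources used here. The 5 HTSeq summary rows were kept out of library sizes (gene rows were 84.4% to 87.2% of each file). Since reads with several alignments, or overlapping several genes, have summary rows of their own, members with near-identical copies or readthrough loci can be undercounted.

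Counts were tested with edgeR 4.0.16 (R 4.3.3) by the quasi-likelihood test over all 6 libraries, TMM scaling and filterByExpr (minimum count 10, minimum total 15), with p values adjusted by Benjamini-Hochberg over 16107 genes at 0.05. CPM are TMM-scaled; errors of fold changes are standard errors implied by the F statistic. Pairwise log2 differences used CPM plus 0.5. DESeq2 1.42.0 was an alternative. The edgeR script was tested on simulated counts of 16107 genes, 200 of them changed: 53.5% of 2-fold and 95% of 4-fold changes were recovered, with 6 unchanged genes called. Replicate numbers are shared between media. Deviations from the medium's mean correlated at 0.31, 0.43 and 0.37 over all genes for equal numbers, against -0.24 to -0.14 for others. Over the members the values for equal numbers were 0.14, 0.32 and 0.29, against -0.36 to 0.19 for others. The highest of these others lay above the value for the first equal pair. The main edgeR fit, DESeq2 and the permutation tests did not use this pairing. It entered only the edgeR fit with the replicate block, the differences within pairs and the sign-flip test. The labels do not say what equal numbers share.

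Members named are those past the threshold with or without the replicate block (there were 0), the 4 lowest and 4 highest fold changes, the 3 highest and lowest CPM, the paralog pairs, the stalk and the proteins bound to the 5S RNA; RPS2, RPL8 and RPL13 are named outside this rule, after seeing their values. Members without a pyrimidine run in either search are also named. From other lists, genes past the threshold, genes called by DESeq2 or those with the 2 smallest p were named. The members and lists were chosen with earlier results of these data known. Transcript lengths and shared 50-base words came from GENCODE 29 (GRCh38), start sequences from a RefSeq table in which 17 members were not matched.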

Additional observations from a re-analysis of the deposited data

How the results depend on the processing

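The count of members past the adjusted threshold was 0 under edgeR with either other scaling, either other filter, the replicate block and whichever of the 6 libraries was left out, and 4 under DESeq2's Wald test. The count over all genes was 219, and it was 1212 under DESeq2, 119 when a gene needed 10 counts in all libraries, 539 without a filter and 770 with the replicate block; leaving out 1 library gave 3 to 131. The members' median stayed below 0 under every alternative, from -0.34 without RPMI plus B27 replicate 3 to -0.16 without RPMI plus B27 replicate 1. The difference in their share of gene counts was -0.309 percentage points, and -0.401 to -0.135 without 1 library. The small-subunit share differed by -1.25 to -0.813 percentage points without 1 library, with an exact p of 0.25 within pairs by sign flips, the smallest that 3 pairs can give. Members without overlap were 49 to 65 (62.0% to 82.3%) with 1 library left out, where 15.7% to 19.6% of all tested genes were, an alternative chosen after seeing the data.

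The log2 fold change of RPL19 turned to 0.0786 under total counts and to 0.00082 and 0.0131 without DMEM plus fatty acids replicate 1 and RPMI plus B27 replicate 1, in a range of -0.0618 to 0.0131 without 1 library. That of RPS27L turned to -0.0328 and -0.0743 without DMEM plus fatty acids replicate 2 and RPMI plus B27 replicate 1, in a range of -0.0743 to 0.12 without 1 library. The difference in the RPL3L share turned to 0.0061 and 0.00024 percentage points without RPMI plus B27 replicate 1 and DMEM plus fatty acids replicate 2, in a range of -0.0105 to 0.0061; it rested on 24 counts in all. The cause of these turns was not tested.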

Other observations

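Regulators of the mTOR pathway and of TOP mRNAs showed a median log2 fold change of 0.15. There were 23 of 28 above 0 under TMM and 24 under total counts. By edgeR 0 passed (8 at an unadjusted p under 0.05, where 17.7% of all tested genes were). By DESeq2 4 passed, all higher with DMEM plus fatty acids, where 2.4% of all tested genes were called higher. With the replicate block 1 passed, RICTOR, a subunit of the second mTOR complex, where 3.42% of all tested genes passed as lower. RICTOR was at 100.7, 67.6 and 57.9 CPM with RPMI plus B27 and 61.4, 49.6 and 39.6 CPM with DMEM plus fatty acids, with overlap between media but lower in 3 of 3 pairs (-0.59 ± 0.24, edgeR adjusted p 0.268 without and 0.0398 with the block). SESN2, which restrains mTOR when amino acids are short, was at 40.1 to 64.95 CPM against 82.9 to 111.6 CPM (0.80 ± 0.20, edgeR adjusted p 0.108, DESeq2 adjusted p 0.0175). EIF4EBP1, a translation repressor and mTOR substrate, was at 51.5 to 63.6 CPM against 70.8 to 92.7 CPM (0.56 ± 0.15, edgeR adjusted p 0.115, DESeq2 adjusted p 0.0319). DESeq2 also called RRAGC (0.53 ± 0.14, edgeR adjusted p 0.119, DESeq2 adjusted p 0.0270). DEPTOR, at 0.53 to 0.63 CPM against 1.14 to 2.46 CPM, was called too (1.49 ± 0.39, edgeR adjusted p 0.120, DESeq2 adjusted p 0.0469). The list mixes parts of the pathway with genes that restrain it, and mTOR activity was not measured.

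Among 20 targets of p53, which RPL5 and RPL11 can activate through MDM2, the median was 0.16 with 12 above 0, and 15 under total counts. By edgeR 0 passed (2 at an unadjusted p under 0.05, where 17.7% of all tested genes were). Of all tested genes, 1.36% passed as higher with the replicate block and 2.4% by DESeq2. TP53INP1, a stress-response gene, passed with the replicate block and by DESeq2, at 75.6 to 85.7 CPM with RPMI plus B27 and 112.0 to 120.0 CPM with DMEM plus fatty acids (0.50 ± 0.10, edgeR adjusted p 0.0735 without and 0.0486 with the block). PLK3, a stress-responsive kinase, had -0.70 ± 0.28.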
